A study of Mus musculus with 10 samples.

Results

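The genes of Wnt ligands, Frizzled receptors, Wnt antagonists and a few readouts of the pathway were followed across 10 mouse tumors. Members were chosen by name: every gene called Wnt, Fzd, Sfrp or Dkk with a number, together with Wif1, Frzb, Lrp5, Lrp6, Axin2, Lef1 and Tcf7. The arrays carried 59 probes for 44 such genes among 41174 probes in all, and each gene was represented by its brightest probe in the red channel. The normalized table held that probe for 43 of the 44 genes, and the probe of Dkk4, an antagonist, was not in the 40196 rows used here. The 43 genes were 19 ligands, 10 receptors, 2 co-receptors, 9 secreted antagonists, and the 3 genes Axin2, Lef1 and Tcf7.

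The tumors were 5 sarcomatoid tumors, whose carcinoma cells are spindle shaped, and 5 adenocarcinomas, which keep a glandular form. According to the methods of the study, the sarcomatoid group held a primary tumor with Pik3ca H1047R and Trp53 R270H, a primary tumor with Pik3ca H1047R and a Trp53 R245H mutation that arose by itself, a primary tumor with Trp53 R270H alone, all under MMTV-Cre, and 2 lung tumors that grew after cell lines of the first and second of these were injected into the tail vein. All 5 adenocarcinomas were primary tumors with Pik3ca H1047R, Trp53 R270H and MMTV-Cre, and the compound mutant mice were on a C57BL/6 background. All tumors therefore go back to cells in which Cre was driven by the MMTV promoter, a viral promoter active in mammary epithelium, and no normal gland and no tumor without a mutant allele entered the comparisons. The labels number the sarcomatoid tumors 323, 307 and 594 in the mammary gland and 323 and 307 in the lung, and the adenocarcinomas 105, 131, 470, 17 and 85; they call 594 a sarcomatoid carcinoma and the other 4 sarcomatoid adenocarcinomas. The sarcomatoid group thus held 3 tumor origins in 5 arrays, so that p-values over 5 against 5 arrays treat related tumors as separate. Ages were not given in the sources used here.

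Wnt proteins are secreted lipid-modified ligands that bind Frizzled receptors and, for the beta-catenin branch, the co-receptors Lrp5 and Lrp6. Beta-catenin then enters the nucleus and acts with factors of the Tcf and Lef family, and some of the genes switched on, Axin2 among them, dampen the pathway in turn. Secreted Frizzled-related proteins, Dickkopf proteins and Wif1 keep ligands from their receptors, and in the mammary gland Wnt4 is known as a progesterone-induced ligand in branching.

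Values are log2 ratios from the deposited normalized table, read as tumor over a common reference. The labels name the green dye for the tumor RNA, but the green signal varied less between arrays than the red (mean SD of the log2 signal 0.738 against 0.987), and each of the 10 columns correlated best with the red over green ratio belonging to it (r between 0.869 and 0.926 over the probes, and no higher than 0.744 with any other array). The signals alone make tumor over reference likely and do not settle it. Were the reference in red, the sign of every value below would turn. The study reported the epithelial markers Krt18 and Epcam as lower, and the myeloid markers Mrc1 and Itgam as higher, in the sarcomatoid tumors. As read here, sarcomatoid minus adenocarcinoma was -3.32 for Krt18, -2.86 for Epcam, 1.71 for Mrc1 and 1.61 for Itgam. These signs match the reported directions, and with the reference in red they would be opposite to them. The share of probes well above background in red ran from 52.3% in tumor 85 to 83.0% in tumor 105, and of the 43 members 20 were well above background on all 10 arrays, 17 on 5 to 9 arrays and 6 on fewer than 5. Of 10 luminal epithelial markers, the list mean lay between 3.45 and 3.73 in 4 adenocarcinomas, between 1.47 and 2.39 in the 3 mammary sarcomatoid tumors, at -1.29 and -2.36 in the lung tumors, and at -0.95 in adenocarcinoma 470. Tumor 470 was thus labelled as an adenocarcinoma and stood apart from the other 4 in these markers, and results below that turn on it are given with and without it. Leaving it out was prompted by values already seen, so p-values without it are given as description only.

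Across the tumors the members varied more than most probes. The median SD of a member over the 10 tumors was 0.94 on the log2 scale, beside 0.57 for all probes. The range of SDs was wide among the members, from 0.13 for Wnt1, the founding ligand of the family, to 2.13 for Lef1, the nuclear partner of beta-catenin. The antagonists Dkk2, Dkk3 and Wif1 and the receptor Fzd9 followed Lef1, with SDs of 2.06, 1.99, 2.04 and 2.05. The heat map of all members shows this uneven spread, with whole rows near 0 beside rows that run from deep blue to deep red.

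**Figure D1:**
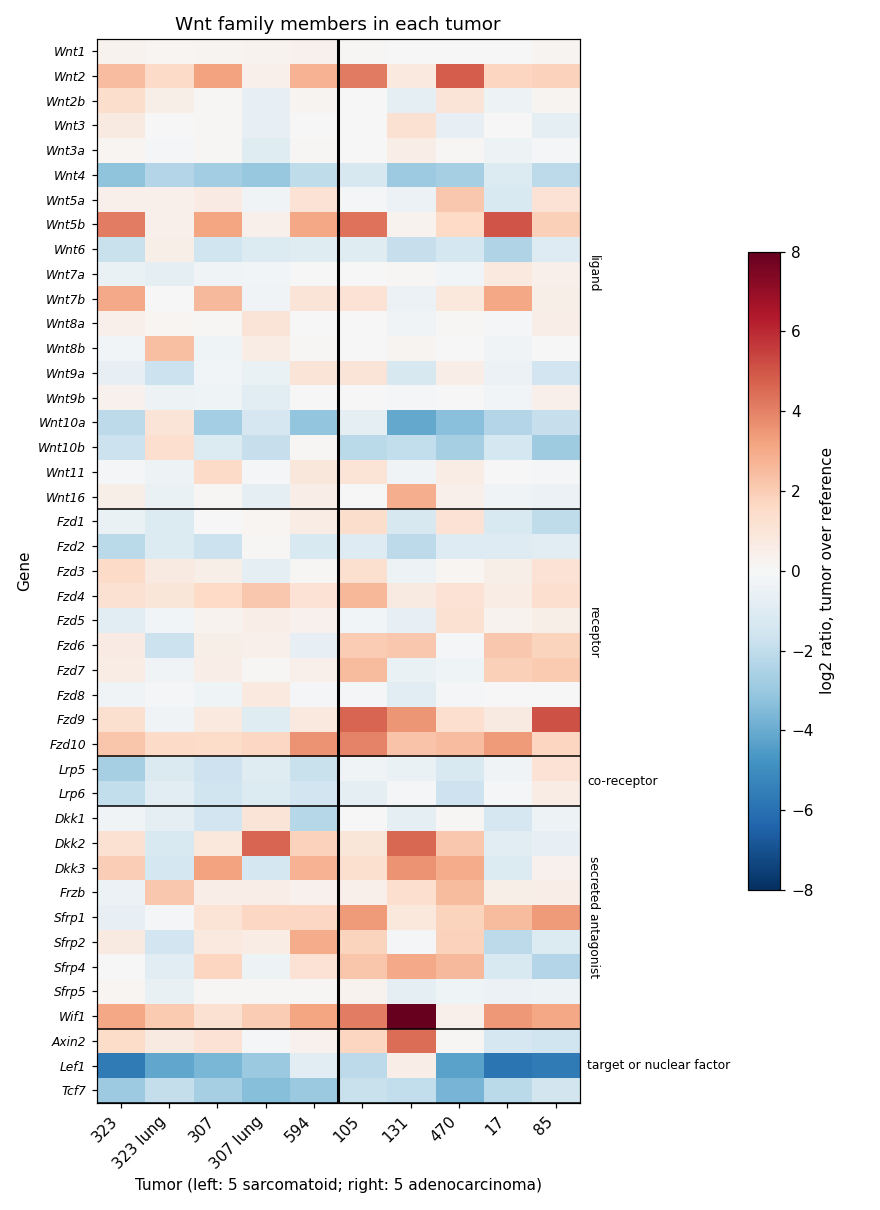
The log2 ratio (tumor over reference, colour) of the 43 members is plotted by gene (rows, grouped by role) and tumor (columns, 5 sarcomatoid to the left of the line and 5 adenocarcinomas to the right). Lef1 ranged from -5.82 to 0.52 and Wif1 from 0.40 to 7.95, while Wnt1 stayed between -0.03 and 0.31.

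The first comparison set sarcomatoid tumors against adenocarcinomas, the contrast for which the series was made. The leading members were receptors and co-receptors, and they were lower in the sarcomatoid tumors: Fzd9, Fzd6, Lrp5 and Lrp6 by 1.01 to 2.75 on the log2 scale, joined by the antagonist Sfrp1, while the ligand Wnt10b was higher. None of these differences passed the threshold after adjustment over all probes. With limma and Benjamini-Hochberg adjustment, 0 of 43 members and 0 of 40196 probes (0.0%) had an adjusted p below 0.05. At an unadjusted p below 0.05 there were 6 members, 1 higher and 5 lower, or 13.95% of the 43 beside 9.23% of all probes (4.98% higher and 4.25% lower). The median difference over the members was -0.11, beside -0.00 over all probes, and 20 members were higher and 23 lower. In no member were the 5 arrays of one group all above those of the other, which was the case for 1.33% of all probes.

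Fzd9, a Frizzled receptor, had the largest difference among the receptors. It was at 1.31 in tumor 323, -0.29 in its lung tumor, 0.80 in 307, -0.96 in its lung tumor and 0.81 in 594. In the adenocarcinomas it was at 4.68 (105), 3.53 (131), 1.37 (470), 0.74 (17) and 5.12 (85). Adenocarcinomas 105, 131 and 85 were thus far above every sarcomatoid tumor, and 17 lay within their range. The difference was -2.75 (SE 0.82, 95% interval -4.54 to -0.97, limma p = 0.00577, adjusted p = 0.378), a 6.73-fold lower mean, and the exact permutation test of the group means gave a two-sided p of 0.0476. An exact test of 5 against 5 cannot go below 0.00794, and the exact p values given here are not adjusted for the number of genes.

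Fzd6, a receptor known for planar cell polarity, split the tumors in another way. Its values were 0.68, -1.73, 0.47, 0.44 and -0.68 in 323, 323 lung, 307, 307 lung and 594, against 2.05, 2.17, 2.18 and 1.76 in adenocarcinomas 105, 131, 17 and 85. The fifth adenocarcinoma, 470, was at -0.14, inside the sarcomatoid range, and the other 4 were above all 5 sarcomatoid tumors. The difference was -1.77 (SE 0.56, adjusted p = 0.393, exact p = 0.0317) with all arrays. Without 470 it was -2.20, and limma's adjusted p of 0.0468 then passed the threshold, the only member to do so, when 618 probes (1.54%) did. As 470 was the lowest adenocarcinoma for Fzd6, leaving it out had to widen the difference. Over all alternatives its adjusted p ran from 0.0468 to 0.677.

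The co-receptors Lrp5 and Lrp6, which Wnt ligands bring together with Frizzled receptors, were ordered alike. Lrp5 was at -2.68, -1.15, -1.65, -0.96 and -1.80 in the sarcomatoid tumors 323, 323 lung, 307, 307 lung and 594, and at -0.25, -0.50, -1.20, -0.27 and 1.14 in adenocarcinomas 105, 131, 470, 17 and 85. Lrp6 was at -1.96, -0.93, -1.60, -1.09 and -1.51 in the sarcomatoid tumors and at -0.76, -0.17, -1.63, -0.09 and 0.60 in the adenocarcinomas, in the same order of tumors. For both genes every adenocarcinoma except 470 was above all sarcomatoid tumors, 470 fell among them, and tumor 85 was the highest. The differences were -1.43 for Lrp5 (SE 0.44, limma adjusted p = 0.387, exact p = 0.0238) and -1.01 for Lrp6 (SE 0.39, adjusted p = 0.468, exact p = 0.0476). Without 470 they were -1.68 and -1.32, with limma's adjusted p at 0.0864 and 0.0815, the lowest of ranges that reached 0.687 and 0.730 over the alternatives.

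The other receptors were closer between the groups. Fzd7, a receptor found in mammary progenitor cells, was at 2.55, 1.94 and 2.11 in adenocarcinomas 105, 17 and 85, at -0.54 and -0.34 in 131 and 470, and between -0.30 and 0.62 in the sarcomatoid tumors. Its difference was -0.88 (SE 0.59, adjusted p = 0.689, exact p = 0.198), and the second Fzd7 probe, also well above background on all 10 arrays, gave -0.06. Fzd10 was at 2.22, 1.51, 1.499, 1.63 and 3.59 in 323, 323 lung, 307, 307 lung and 594 and at 3.97, 2.31, 2.47, 3.41 and 1.74 in 105, 131, 470, 17 and 85. These values overlapped throughout, with a difference of -0.69 (SE 0.50, adjusted p = 0.720, exact p = 0.222), and the probe was well above background on 3 sarcomatoid and 4 adenocarcinoma arrays. The 6 receptors not described here differed by -0.22 to 0.20.

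**Figure D2:**
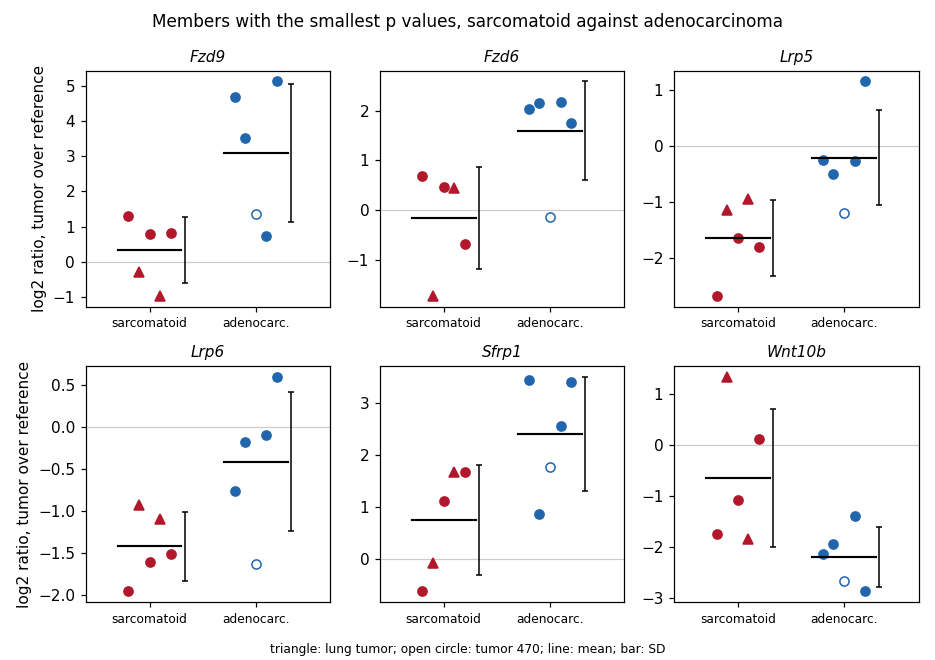
Each point is the log2 ratio (tumor over reference, vertical axis) of 1 tumor for the 6 members with the smallest p values, by group (horizontal axis), with triangles for lung tumors, an open circle for tumor 470, a line for the mean and a bar for the SD of 5 arrays. For Fzd6, Lrp5 and Lrp6 the 4 filled adenocarcinoma points lie above all 5 sarcomatoid points, and the open circle lies among the latter.

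The luminal markers named above were lower on average in the sarcomatoid tumors, as were Fzd9, Fzd6, Lrp5 and Lrp6. Of the 10 markers, 3 had an unadjusted p below 0.05, all lower in the sarcomatoid tumors, with a median difference of -2.29. Tumor 470 was low in both the markers and Fzd6, Lrp5 and Lrp6. Markers and receptors did not match in every tumor. Adenocarcinoma 17 had the highest marker mean (3.73) but Fzd9 at 0.74, below 470 at 1.37. The lung tumors had the lowest marker means, but their Lrp5 and Lrp6 were above all mammary sarcomatoid tumors. Of 8 myeloid markers, 7 had an unadjusted p below 0.05 and were higher in the sarcomatoid tumors, with list means of 2.64 to 3.68 against 0.59 to 3.04, the highest adenocarcinoma again being 470. The fibroblast and mesenchymal list averaged -0.85 to 2.04 in the sarcomatoid tumors, 1.97 in 470 and -2.04 to 0.58 in the other adenocarcinomas. The skeletal muscle list was highest in 105 (5.49) and 470 (3.67), followed by 594 (2.99). The part of these cell types in the result was not tested, and in whole tumor pieces fewer cells of a type and less RNA per cell cannot be told apart. Scan batch, taken from the name of the extraction protocol recorded with each array, was also uneven between the groups. Within the batch of tumors 307, 594, 105 and 470 the differences were -2.22 (Fzd9), -1.06 (Fzd6), -1.002 (Lrp5) and -0.37 (Lrp6). Within the batch of both lung tumors, 131, 17 and 85 they were -3.75, -2.68, -1.18 and -1.12 for the same genes, and tumor 323 was alone in its batch. A pair of slides each held 1 tumor of each group. Sarcomatoid minus adenocarcinoma was -3.88 (Fzd9), -1.58 (Fzd6), -1.40 (Lrp5) and -0.85 (Lrp6) on the slide of 307 and 105, and -0.56, -0.54, -0.61 and 0.11 on that of 594 and 470, so that Lrp6 turned there. With slide as a random block, 1 member was higher and 5 lower at an unadjusted p below 0.05, and the 4 values were -2.63, -1.61, -1.34 and -0.87.

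Among the ligands the groups overlapped. Wnt10b, a ligand of the beta-catenin branch that drives mammary tumors when overexpressed, was at -1.74, 1.34, -1.07, -1.84 and 0.12 in 323, 323 lung, 307, 307 lung and 594. In the adenocarcinomas it was at -2.13, -1.94, -2.67, -1.39 and -2.86 (105, 131, 470, 17 and 85). Tumors 307 and 594 and, highest of all, the lung tumor of 323 were above every adenocarcinoma, and the other 2 were within their range. The difference was 1.56 (SE 0.58, limma adjusted p = 0.446, exact p = 0.0397), the adenocarcinoma signal being well above background on 3 of 5 arrays, and it was 1.92 and 1.81 within the 2 scan batches that held both groups. With normexp and loess on the scanner intensities it was 0.82.

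Wnt4 was low against the reference in all tumors, at -3.19, -2.34, -2.80, -3.04 and -2.06 in the sarcomatoid group and at -1.29, -2.89, -2.64, -1.11 and -2.08 in the adenocarcinomas, each in the order of tumors given above. Adenocarcinomas 105 and 17 stood above the rest, and the difference of -0.68 (SE 0.39, limma adjusted p = 0.624, exact p = 0.159) was within the spread. Wnt7a, a ligand of epithelia, was at -0.53, -0.71, -0.26, -0.22 and 0.03 in the sarcomatoid and at 0.02, 0.10, -0.20, 0.79 and 0.41 in the adenocarcinoma arrays. Its probe was well above background on only 2 arrays of each group, and the difference was -0.56 (SE 0.26, adjusted p = 0.544, exact p = 0.0238). The other 16 ligands differed by -0.60 (Wnt2) to 0.83 (Wnt10a), with 10 higher and 6 lower.

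The antagonists did not move together. Sfrp1, a secreted Frizzled-related protein that binds Wnt ligands, was at -0.63, -0.09, 1.10, 1.67 and 1.68 in sarcomatoid tumors 323, 323 lung, 307, 307 lung and 594. In the adenocarcinomas it was at 3.43, 0.86, 1.76, 2.54 and 3.39 (105, 131, 470, 17 and 85). All adenocarcinomas except 131 were above the sarcomatoid tumors, and for this gene 470 was with the adenocarcinomas. The difference was -1.65 (SE 0.59, limma adjusted p = 0.437, exact p = 0.0556), and a second, dimmer Sfrp1 probe gave -1.18.

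Wif1, a secreted protein that binds Wnt ligands themselves, was at 3.10, 2.11, 1.23, 2.03 and 3.17 in the sarcomatoid tumors and at 4.09, 7.95, 0.40, 3.49 and 3.12 in the adenocarcinomas. The adenocarcinomas held both the highest value, in 131, and the lowest, in 470. The difference was -1.48 (SE 1.06, limma adjusted p = 0.715, exact p = 0.294); it was -0.45 without 131 and -2.33 without 470, so that both tumors decided its size. The remaining 7 antagonists differed by -0.53 (Sfrp4) to 0.64 (Sfrp2), and 0 of them had an unadjusted p below 0.05. The Dkk1 probe used was not well above background on any array, and so its value of -0.29 compares signals at background; a second probe, well above it on 3 arrays, gave 0.06.

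The readouts differed between tumors more than between groups. Tcf7, a Tcf family factor abundant in T cells, was at -2.88, -1.88, -2.69, -3.38 and -2.98 in the sarcomatoid tumors and at -1.76, -1.95, -3.71, -2.16 and -1.44 in the adenocarcinomas. Tumor 470 was the lowest of all 10, the difference was -0.56 (SE 0.43, limma adjusted p = 0.737, exact p = 0.254), and it was -0.93 without 470. Axin2, a feedback inhibitor often used as a readout of beta-catenin, was at 1.46, 0.69, 1.15, -0.12 and 0.36 in the sarcomatoid tumors. In the adenocarcinomas it was at 1.72, 4.44, 0.08, -1.37 and -1.61. The adenocarcinomas spanned the full range, and the difference was 0.06 (SE 0.97, 95% interval -2.06 to 2.16). Lef1 was at -5.64, -4.13, -3.69, -2.97 and -0.90 against -2.12, 0.52, -4.26, -5.82 and -5.65, with means that coincided (difference 0.00, SE 1.19, 95% interval -2.59 to 2.60). Intervals of this width do not show that the groups were alike, and the sign of both differences turned under other settings.

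**Figure D3:**
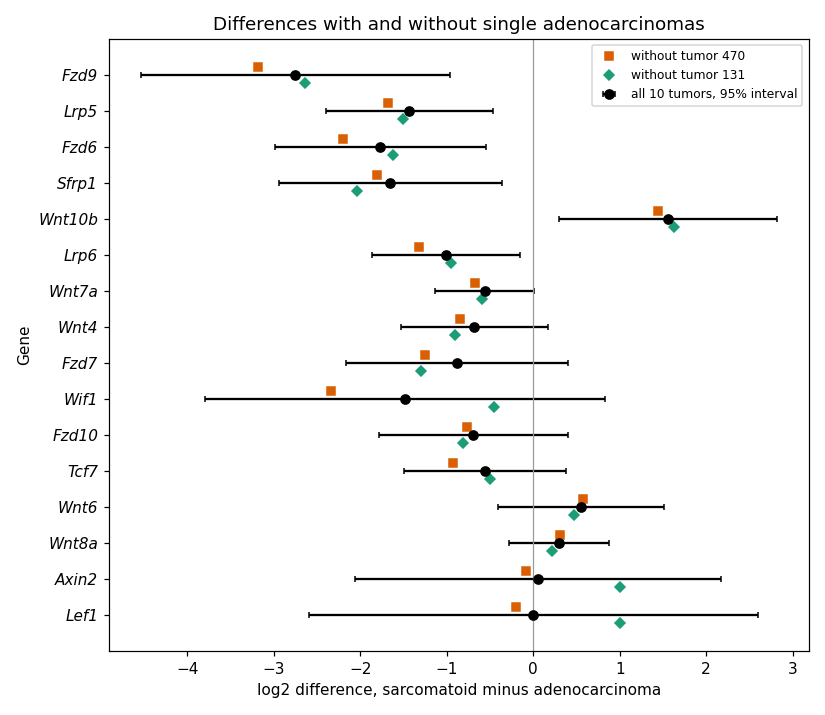
The log2 difference (sarcomatoid minus adenocarcinoma, horizontal axis) is plotted by gene for the 14 members with the smallest p values and for Axin2 and Lef1, as black points with 95% intervals for all 10 tumors, orange squares without tumor 470 and green diamonds without tumor 131. Leaving out 470 moved Fzd6 from -1.77 to -2.20, and the 2 omissions moved Wif1 in opposite directions, to -2.33 and -0.45.

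Of 52 other genes of the pathway, 0 had an adjusted p below 0.05 in this comparison, and 3 higher and 8 lower ones had an unadjusted p below 0.05, beside 4.98% and 4.25% of all probes. The 23 genes for secretion and surface partners gave 2 higher and 6 lower, the 13 target genes 1 and 2, and the 16 genes of the destruction complex and its nuclear partners 0 and 0. The medians of the 3 lists were -0.52, -0.47 and -0.20, beside -0.00 over all probes. Wls, the carrier that escorts Wnt proteins to the cell surface, had the smallest p and did not overlap between the groups: it was between 1.16 and 2.08 in the sarcomatoid tumors, at 1.09 in 470 and between -0.97 and -0.61 in the other adenocarcinomas. The difference was 1.98 (SE 0.38, limma adjusted p = 0.330, exact p = 0.00794), and 2.34 without 470 (adjusted p = 0.0118, in a range of 0.0118 to 0.676 with arrays left out). Its second probe gave 1.83.

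A few more pathway genes followed Wls in the order of p. Wisp1, a secreted matricellular target gene, was higher by 2.32 (SE 0.69, limma adjusted p = 0.376), at 1.62 to 1.88 in 4 sarcomatoid tumors, at 0.08 in the lung tumor of 323, at 1.67 in 470 and at -2.58 to -0.42 in the other adenocarcinomas. Rnf43, a ubiquitin ligase that removes Frizzled receptors from the surface, was lower, with a difference of -2.63 (SE 0.82, adjusted p = 0.387), with values of -2.86 to -0.83 in the sarcomatoid tumors, -2.21 in 470 and 0.54 to 3.35 in the other adenocarcinomas. Without 470, Wisp1 and Rnf43 differed by 2.97 and -3.39 and passed the threshold (limma adjusted p = 0.0217 and 0.0249), and with other arrays left out the adjusted p of both reached 0.677. For Wls, Wisp1 and Rnf43, 470 was the adenocarcinoma closest to the sarcomatoid tumors, so leaving it out had to widen the differences. Ror1, a receptor tyrosine kinase for Wnt ligands, differed by -1.04 (SE 0.32, adjusted p = 0.387, exact p = 0.00794) without overlap, at 0.12 to 0.99 against 1.07 to 2.40, on a probe well above background on 6 of 10 arrays; its second, dimmer probe gave 0.32. The receptor kinase Ptk7 and the Rnf43 relative Znrf3 were the other genes of the 52 without overlap, with differences of -0.81 and -1.39. Wls, Ror1, Ptk7 and Znrf3 were thus the genes of the 52 without overlap, beside 1.33% of all probes.

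The second comparison asked how the 2 lung tumors differed from the 3 sarcomatoid tumors of the mammary gland. The antagonist Dkk3 and the ligands Wnt5b and Wnt7b were lower in the lung tumors, with differences of -4.08 to -2.33 on the log2 scale, and the ligands Wnt10a and Wnt8b and the receptor Fzd2 were higher. None passed the threshold after adjustment. With limma, 0 of 43 members had an adjusted p below 0.05, as did 10 of all probes (0.0249%), and 3 higher and 3 lower members had an unadjusted p below 0.05, or 13.95% beside 10.7% of all probes (5.59% higher and 5.1% lower). With tumor number as a replicate block, which pairs each lung tumor with the mammary tumor its cell line came from, the counts were 6 higher and 6 lower, beside 6.59% and 6.69% of all probes in the same fit. The median over the members was -0.43, beside 0.03 over all probes. The lung and mammary arrays did not overlap in 20 members, or 46.5%, beside 34.3% of all probes.

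Dkk3, a divergent Dickkopf protein, was at 1.99, 3.23 and 2.77 in mammary tumors 323, 307 and 594 and at -1.43 and -1.39 in the lung tumors of 323 and 307. The difference was -4.08 (SE 1.13, limma adjusted p = 0.297), and within each pair it was -3.42 (323) and -4.63 (307). Wnt5b, a ligand mostly of the beta-catenin independent branch, was at 4.07, 3.13 and 3.10 against 0.40 and 0.39, and Wnt7b, a ligand of epithelia, at 3.01, 2.56 and 1.05 against 0.06 and -0.30. Both lung tumors were below all mammary sarcomatoid tumors for these 3 genes, while adenocarcinomas such as 131 reached lung levels of Wnt5b (0.31) and Wnt7b (-0.49). The differences were -3.04 (SE 1.16, adjusted p = 0.403) for Wnt5b and -2.33 (SE 0.89, adjusted p = 0.405) for Wnt7b, and a second Wnt5b probe gave -2.06.

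Wnt10a and Wnt8b were highest in the lung tumor of 323. Wnt10a, a ligand of the beta-catenin branch, was at 1.06 in the lung tumor of 323 and -1.34 in that of 307, against -2.12, -2.71 and -3.17 in mammary tumors 323, 307 and 594 (difference 2.53, SE 0.93, limma adjusted p = 0.390). Wnt8b, a ligand best known from the developing brain, was at 2.42 and 0.58 against -0.22, -0.37 and 0.10 (1.67, SE 0.48, adjusted p = 0.307), and was well above background on 1 of the 2 lung arrays. The Wnt8b value was 0.75 without the lung tumor of 323, 2.58 without that of 307 and 0.31 with normexp and loess. Fzd2, a receptor known from Wnt5a signaling, was instead highest in the lung tumor of 307, at 0.07, with -1.11 in that of 323 and -2.13, -1.72 and -1.21 in the mammary tumors (1.17, SE 0.49, adjusted p = 0.441). Without the lung tumor of 323 Wnt10a differed by 1.33 and Fzd2 by 1.76, and Fzd2 by 0.58 without that of 307. For these genes the 2 pairs moved the same way but by unequal amounts: 3.17 and 1.37 for Wnt10a, 2.64 and 0.95 for Wnt8b, and 1.02 and 1.79 for Fzd2.

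**Figure D4:**
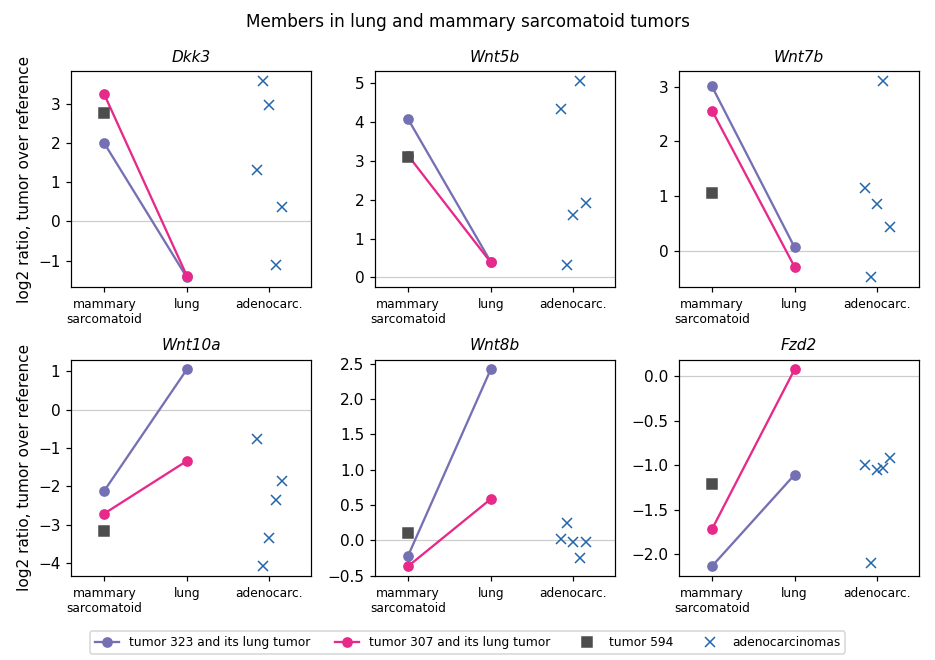
The log2 ratio (tumor over reference, vertical axis) of 6 members is plotted for mammary sarcomatoid tumors, lung tumors and adenocarcinomas (horizontal axis), with lines joining a mammary tumor and the lung tumor grown from its cell line. Dkk3, Wnt5b and Wnt7b descend along both lines and Wnt10a, Wnt8b and Fzd2 ascend along both, with the adenocarcinomas spread over much of the same range for Dkk3, Wnt5b and Wnt7b.

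The co-receptors were not lower in the lung tumors: Lrp5 differed by 0.99 (SE 0.59, limma adjusted p = 0.582) and Lrp6 by 0.68 (SE 0.55, adjusted p = 0.694), with both lung tumors above all 3 mammary sarcomatoid tumors. Axin2, Lef1 and Tcf7 differed by -0.71, -0.14 and 0.21, each with groups that overlapped. Lung and mammary sarcomatoid tumors never shared a scan batch. With scan batch as a term, carried by the adenocarcinomas alone, 3 members were higher and 0 lower at an unadjusted p below 0.05, beside 3.36% and 3.08% of all probes in that fit, the values being -3.22 for Dkk3, -2.18 for Wnt5b and -1.94 for Wnt7b, and the signs of Lrp5 (-0.18) and Lrp6 (-0.76) turned. Of the 10 luminal markers 7 had an unadjusted p below 0.05, all lower in the lung tumors, with a list median of -3.93, and 3 of 6 T cell markers were lower too. Of 7 basal and myoepithelial markers 3 were lower (Krt5, Trp63 and Oxtr), with a list median of -1.50; the list averaged -0.38 and -0.54 in the lung growths of 323 and 307, against 0.83 to 1.74 in the mammary sarcomatoid ones. The 7 lung epithelium markers had a list median of 0.11, and its mean was -0.13 and 0.82 for the lung tumors and 0.06 to 0.73 for the mammary sarcomatoid ones. The part of other cells in these differences was not tested.

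Of the 52 other pathway genes, 0 had an adjusted p below 0.05 between lung and mammary sarcomatoid tumors, and 2 higher and 4 lower ones had an unadjusted p below 0.05, a share near the 5.59% and 5.1% of all probes. Nkd2, an antagonist of Dishevelled, was at 0.93 and 2.13 in the lung tumors of 323 and 307 and at 5.24, 5.51 and 5.01 in mammary tumors 323, 307 and 594, and 5.05 to 7.30 in the adenocarcinomas. It was lowest in the lung tumors of all 10, with a difference of -3.72 (SE 0.65, limma adjusted p = 0.139); when adenocarcinoma 470 was left out of the fit the adjusted p was 0.0408, and over all arrays left out it ran from 0.0297 to 0.385. Rspo1, a secreted protein that raises Wnt receptor levels, was at -0.44 and 3.10 against 6.42, 4.95 and 4.69 (difference -4.02, SE 1.27, adjusted p = 0.338), and differed by -2.26 without the lung tumor of 323. With scan batch as a term, Nkd2 differed by -4.64 and Rspo1 by -0.93.

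Adenocarcinoma 131 stood out in the readouts Axin2 and Lef1 and in the antagonist Wif1. This tumor and the genes below were singled out after their values were seen, so they are given as a description and no test was made. Axin2 was at 4.44 in 131, with the next tumor (105) at 1.72 and the lowest at -1.61. Lef1 was at 0.52, with the next tumor (594) at -0.90 and the lowest at -5.82, and a second Lef1 probe, well above background on 9 arrays, was at 0.42 in 131 and at -4.05 to -1.14 in the others. Wif1 was at 7.95, with the next tumor (105) at 4.09. Its probe was well above background in red on 7 arrays and in green on 1, so the size of its ratios is uncertain. In the scanner's own ratios 131 was ahead for Wif1 by 2.21 on the log2 scale. In each of these 3 genes 131 was the highest of the 10 tumors, by 2.72, 1.42 and 3.86 on the log2 scale. Tcf7, also among the readouts, did not stand out: it was at -1.95 in 131, below tumors 85 (-1.44) and 105 (-1.76).

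Several genes of the 52, picked for their values in this tumor, were also highest there. Nkd1, an inhibitor of Dishevelled, was at 6.53 in 131 and at most 1.44 in the others, and Apcdd1, a membrane inhibitor of Wnt signaling, at 5.73 and at most 1.74. Notum, an enzyme that strips the lipid from Wnt proteins, was at 2.79 and at most 0.97, and Znrf3 and Rnf43 were at 3.12 and 3.35, with 1.19 and 1.36 as the next values. Tnfrsf19, a receptor of the tumor necrosis factor family induced by Wnt, was at 5.10, followed by 3.25 in tumor 85. Others were not: Nkd2, the relative of Nkd1, was at 5.43 in 131 and 7.30 in tumor 17, and Sp5, a transcription factor and Wnt target, was at 1.12 and 2.52 in the same 2 tumors. Tumor 131 was highest in 8 of the 43 members (18.6%) and 13 of the 52 pathway genes, beside 15.3% of all probes. It was ahead by over 1 on the log2 scale in 4 members (9.30%) and 10 pathway genes (19.2%), beside 2.32% of all probes. Were the dyes the other way round these would be its lowest values; as read here, 131 was lowest in 8 members (18.6%) and 6 pathway genes, beside 13.4% of all probes, and below the rest by over 1 in 0 members and 1 pathway gene, beside 1.26% of all probes.

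**Figure D5:**
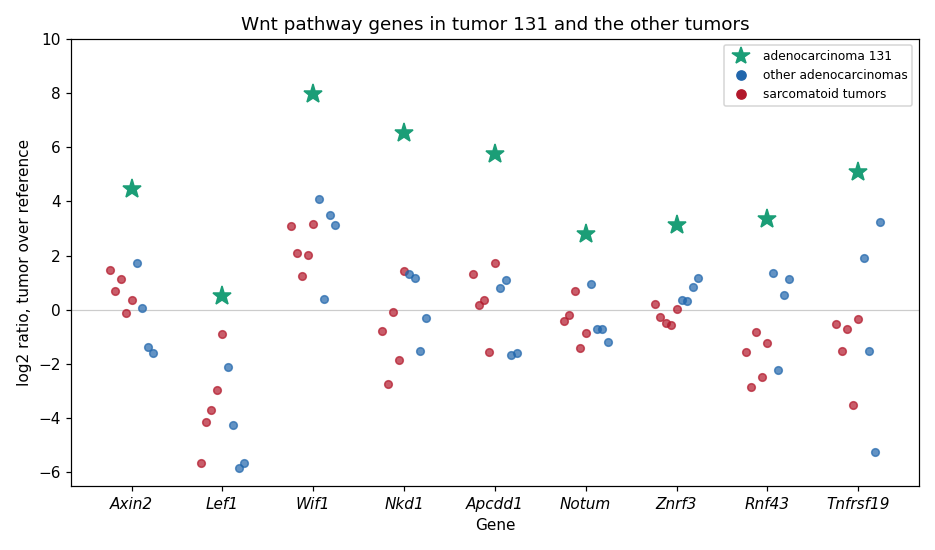
The log2 ratio (tumor over reference, vertical axis) of 9 genes (horizontal axis) is plotted for each tumor, with a star for adenocarcinoma 131 and points for the other adenocarcinomas and the sarcomatoid tumors. The star is the highest point for every gene shown, from 1.42 above the next tumor for Lef1 to 5.09 for Nkd1.

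The pattern was not one of all targets. Of the 13 target genes 4 were highest in 131, while Ccnd1, a cyclin, was at -0.52, the lowest of the 10 tumors, and Sox9 was at -0.31, also the lowest. Beta-catenin itself, Ctnnb1, was at -0.08 in 131, the lowest of the 10 tumors but close to the next at -0.04, with the highest at 2.06. Of the 16 destruction complex genes 0 were highest in 131. Among the ligands Wnt16 was at 2.88 in 131 and at most 0.56 elsewhere. Its probe was well above background in red on 4 arrays and in green on 0. Wnt3 was at 1.23 in 131 and at most 0.74 elsewhere on a probe well above background on 1 array. Among the receptors Fzd2 (-2.10) and Fzd8 (-0.87) were low in this tumor. The luminal list mean was 3.45 in 131, like the other adenocarcinomas except 470, and its fibroblast (-2.04) and myeloid (0.59) list means were the lowest of the 10 tumors. The part of the cell makeup in these values was not tested. With normexp correction and loess on the scanner intensities, 131 stayed the highest for Axin2 (3.79, next 1.599), Lef1 (0.49, next -0.70), Wif1 (6.44, next 2.67) and Nkd1 (6.23, next 1.38).

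The 250 bases before the transcription start of 4 of the genes that were highest in tumor 131 are shown because the binding site of Tcf and Lef factors is a short known motif. They are RefSeq promoters of build GRCm38.p6, read 5′ to 3′ on the strand of the gene, with a motif match in capitals. The letters searched on both strands were CTTTG followed by 2 bases that are each A or T.
Axin2, chr11:108920099-108920348, plus strand: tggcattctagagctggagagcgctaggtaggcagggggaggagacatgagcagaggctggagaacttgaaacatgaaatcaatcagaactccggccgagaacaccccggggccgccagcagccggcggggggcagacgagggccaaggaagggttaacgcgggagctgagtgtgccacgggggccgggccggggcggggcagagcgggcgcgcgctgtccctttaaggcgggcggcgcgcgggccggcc
Wif1, chr10:121033754-121034003, plus strand: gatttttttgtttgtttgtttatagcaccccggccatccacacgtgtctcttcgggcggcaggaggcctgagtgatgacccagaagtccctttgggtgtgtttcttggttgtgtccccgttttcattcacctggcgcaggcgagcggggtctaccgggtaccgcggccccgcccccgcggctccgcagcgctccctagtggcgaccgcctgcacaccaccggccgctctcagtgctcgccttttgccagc
Lef1, chr3:131156044-131156293, plus strand: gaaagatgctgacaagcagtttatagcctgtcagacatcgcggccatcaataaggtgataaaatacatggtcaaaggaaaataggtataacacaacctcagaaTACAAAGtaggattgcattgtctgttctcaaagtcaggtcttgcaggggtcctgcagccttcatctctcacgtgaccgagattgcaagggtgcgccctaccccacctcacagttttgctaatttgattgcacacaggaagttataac
Tnfrsf19, chr14:61037988-61038237, minus strand: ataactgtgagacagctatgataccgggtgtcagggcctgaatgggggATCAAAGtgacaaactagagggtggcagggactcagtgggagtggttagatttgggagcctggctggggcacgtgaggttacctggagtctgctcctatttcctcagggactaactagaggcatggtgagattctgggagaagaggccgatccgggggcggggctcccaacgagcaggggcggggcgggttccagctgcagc
The Axin2 and Wif1 promoters held no match, nor did that of Nkd1, which says only that these letters are not in these windows. Lef1 has 4 listed promoters, and only the one shown held a match. It was TACAAAG, the motif read on the other strand, starting 147 bases before the start of transcription. Tnfrsf19 has 2 listed promoters, and again only the one shown held a match. It was ATCAAAG, also on the other strand, starting 202 bases before the start. The shares that follow are per promoter, so they do not allow for picking 1 promoter out of several of a gene. A match was found in 14.8% of all 32851 promoters and in 5 of 37 promoters (13.5%) of the 30 member genes with an entry, and is a description, not a site of binding.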

How the data were processed

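RNA of 10 tumors was measured on 2-colour arrays, 1 array per tumor. The authors deposited scanner files with the intensity of both channels and a log10 red to green ratio per spot, and a table of log2 ratios normalized with limma, whose steps, scale of centring and dye direction were not given in the sources used here. Column medians ran from -0.05 to 0.07. Spots of a probe were averaged, and all 40196 probes were fitted with limma 3.58.1 (two-sided, Benjamini-Hochberg adjustment, threshold 0.05). Group was the only term for sarcomatoid against adenocarcinoma; lung and mammary sarcomatoid tumors were compared in a fit of 3 groups. Scanner intensities were normalized with normexp (offset 50) and loess as an alternative. On simulated data, 200 probes changed by 2 on the log2 scale were recovered at 58.0% for sarcomatoid against adenocarcinoma. The simulated noise was independent between arrays, with the residual spread of each probe. It left out the shared tumor origins and slides of the real arrays, so this share does not give the power of the real comparison.

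The members, gene lists and tests were chosen with earlier results of these data known. Named were the 12 members with the smallest p in the first comparison, the 6 in the second, Axin2, Lef1, Tcf7, Lrp5 and Lrp6, members without overlap in the first comparison, and the 4 and 2 genes with the smallest p from 3 pathway lists; others named in the text were chosen after their values were seen. A lung tumor and the mammary tumor its cell line came from have the same number and were paired by it. For sarcomatoid against adenocarcinoma, with tumor number as a random block, the consensus correlation within a number was -0.03. Lung and mammary arrays of a number enter that value as repeats, so it includes the difference between sites. The number of arrays limits the precision.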

Additional observations from a re-analysis of the deposited data

Results flagged for a closer look

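In 98 groups of 5 arrays (43 members and 6 pathway genes, each in the sarcomatoid tumors and the adenocarcinomas), 9 held a tumor far from the other 4, where chance gives about 4.9. Among the adenocarcinomas, tumor 131 was far below the others for the receptors Fzd2 (-2.10, nearest -1.05) and Fzd8 (-0.87, nearest -0.15), and far above them for the ligand Wnt16 (2.88, nearest 0.42). Adenocarcinoma 470 was far below the others for Fzd6 (-0.14, nearest 1.76) and far above them for Wls (1.09, nearest -0.61), in both cases at a level near that of the sarcomatoid tumors. Among the sarcomatoid tumors, the lung tumor of 307 was far above the others for Fzd8 (0.76, nearest -0.08) and far below them for Wnt3a (-0.97, nearest -0.09). The lung tumor of 323 was far below the others for Sfrp5 (-0.58, nearest 0.06) and for Wisp1 (0.075, nearest 1.62). The Wnt3a and Sfrp5 probes were not well above background on the array concerned.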

How the results depend on the processing

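With each array left out in turn, members lower in sarcomatoid tumors at an unadjusted p below 0.05 numbered 4 to 9 (main count 5), members higher 1 to 1 and members past the adjusted threshold 0 to 1, the latter Fzd6 without tumor 470 (-2.20). Between lung and mammary sarcomatoid tumors they numbered 2 to 5 higher and 1 to 4 lower (3 and 3), the fewest lower ones without the lung tumor of 307. The other pathway genes gave 2 to 4 higher, 5 to 9 lower and 0 to 3 past the adjusted threshold in the first comparison, and 0 to 5, 2 to 6 and 0 to 1 in the second; the fewest lower ones in the first came without tumor 131 or 594. Without tumors 131 and 470 together, chosen after seeing the data, the first comparison had 0 members higher and 10 lower. In it, 1 pathway gene (Wls) was past the adjusted threshold. The second comparison then had 5 members and 8 pathway genes lower and 1 (Nkd2) past it. In the first comparison 14.2% of all probes had an unadjusted p below 0.05 without 470 alone, beside 9.23% with all arrays. No such share is given for the other fits with arrays left out or for the sarcomatoid arrays alone. The counts of members in those fits therefore cannot be judged against all probes. The second comparison had 7 members lower on the sarcomatoid arrays alone and 0 with scan batch as a term; with tumor number as a replicate block it had 6 higher and 6 lower, and Lef1 turned to 1.11. Scan batch as a term turned Tcf7 (-0.68), Lrp5 (-0.18) and Lrp6 (-0.76) there; single arrays left out gave -1.26 to 1.11 for Lef1 and -0.54 to 0.96 for Tcf7. In the first comparison Axin2 was -0.18 with scan batch as a term, -0.35 with normexp and loess, -0.0031 with 1 value per tumor number, and -0.51 to 1.003 with single arrays left out. Lef1 there was -0.17 with the mean of its probes, -0.0016 with quantile scaling, -0.074 with normexp and loess, -0.013 with tumor number as a random block, and -0.64 to 0.999 with single arrays left out. The causes were not tested. The 12 members named in the first comparison and the 6 in the second kept their sign under every alternative run, but with normexp and loess Lrp6 (-0.66), Wnt4 (-0.38) and Wnt7a (-0.14) shrank by over 1.5 times, as did Fzd7 (-0.53) and Fzd10 (-0.39) without tumor 105. On normexp and loess values the exact p was 0.0476 for Sfrp1 and 0.0556 for Lrp6. No paired analysis was possible for sarcomatoid against adenocarcinoma because these groups share no tumor number; 2 slides held a tumor of each group, and slide as a random block gave a consensus correlation of 0.41 and changed no count of members.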

Other observations

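Some member genes lie side by side, and their probes can be read together; positions are those of the mm7 build in the scanner files. The probes of Wnt6 and Wnt10a lie 19.2 kb apart on chromosome 1 (75024467 to 75024532 and 75043739 to 75043798). Both genes had their highest value in the lung tumor of 323, at 0.48 for Wnt6 and 1.06 for Wnt10a, with -0.95 and -0.76 as the next values. A second Wnt6 probe was at 0.58 there and at -1.12 or below elsewhere. The probes of Wnt10b and Wnt1 lie 20.7 kb apart on chromosome 15, and in the same lung tumor Wnt10b was highest of all (1.34) while Wnt1 was at 0.14. Wnt3a and Wnt9a, and Wnt9b and Wnt3, lie 85.0 and 88.5 kb apart on chromosome 11, and in neither pair was the same tumor the highest in both genes. These pairs were looked at after the values were seen.

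Wnt1 was printed in 10 spots per array, and the SD over the spots of an array ran from 0.16 to 0.48; the SD of 0.13 between the tumors is over means of these 10 spots. Dkk2 was high in 2 tumors of different groups, at 4.64 in the lung tumor of 307 and 4.56 in adenocarcinoma 131, with 2.18 as the next value, and the lung tumor minus the mammary tumor was 3.81 for number 307 and -2.41 for number 323. Rspo2, a secreted partner of Wnt receptors, was at 2.59 in the lung tumor of 307 and at -2.002 or below in every other tumor.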
